A study of Rattus norvegicus with 6 samples.

Results

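The insulin-like growth factor (IGF) axis was followed in cultured rat tracheal basal cells through 10 genes: the binding proteins Igfbp1 to Igfbp7, the ligand Igf1 and the receptors Igf1r and Igf2r. They were chosen by gene symbol from the platform annotation, with earlier results of these data known, and make up 10 of the 15037 genes tested. The rule kept the brightest probe set of a gene by its mean over all arrays, and each of the 10 genes had 1 probe set, so brightness decided nothing among them. Cells came from tracheal scrapings of Sprague Dawley rats, all males of wild-type genotype and 12 weeks old, pooled from 3 animals into each of 3 lines, and each line was divided at isolation between EpiX and BEGM. EpiX is an epithelial expansion medium and BEGM a bronchial epithelial growth medium. RNA was taken after 8 days, giving 3 EpiX arrays and 3 BEGM arrays, numbered here by the sample numbers of the labels. The titles differ from these, since they number both sample 2 arrays as 3 and give the sample 3 arrays no number. The lines are pools, so the spread is between pools and not between single rats. The comparison asked how expression differs between cells of these lines kept in EpiX and in BEGM.

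IGF1 and IGF2 are secreted peptides that act mainly through the receptor tyrosine kinase encoded by Igf1r, which signals through adaptor proteins to PI3-kinase, Akt and mTOR and favours growth and survival. The product of Igf2r, which is also the mannose 6-phosphate receptor, takes up IGF2 for degradation in lysosomes. The IGF-binding proteins hold the peptides in the extracellular space, prolong their life and limit their access to the receptor, and several also bind matrix or integrins independently of IGF. IGFBP7 stands apart from the others, since its affinity for IGFs is low. Epithelial growth media are commonly supplemented with insulin, which can act on the same receptors at high concentration.

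Promoter sequences are shown for the 2 genes of the set that changed between the media, Igfbp2 and Igfbp7, and for Igfbp1, whose promoter is the textbook site of repression by insulin through FoxO factors. Each is the RefSeq window of 300 bases, 250 before and 50 after the annotated start, on the build GRCr8. All 10 genes had such a window. Capitals mark matches to any of 7 motifs searched on both strands.
Igfbp2, GRCr8 chr9:81864561-81864860, plus strand: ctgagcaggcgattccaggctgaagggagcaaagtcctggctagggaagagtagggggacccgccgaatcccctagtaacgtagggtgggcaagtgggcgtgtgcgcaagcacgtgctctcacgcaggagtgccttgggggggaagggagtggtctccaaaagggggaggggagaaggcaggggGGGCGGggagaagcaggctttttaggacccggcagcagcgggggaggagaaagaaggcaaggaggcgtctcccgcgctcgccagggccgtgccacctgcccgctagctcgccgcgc
Igfbp7, GRCr8 chr14:31091486-31091785, plus strand: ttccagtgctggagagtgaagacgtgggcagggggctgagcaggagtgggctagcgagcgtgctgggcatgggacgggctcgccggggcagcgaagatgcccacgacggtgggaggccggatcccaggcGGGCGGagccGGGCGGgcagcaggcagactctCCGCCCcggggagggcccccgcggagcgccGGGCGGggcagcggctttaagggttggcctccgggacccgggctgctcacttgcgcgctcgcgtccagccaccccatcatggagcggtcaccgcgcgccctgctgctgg
Igfbp1, GRCr8 chr14:86261027-86261326, plus strand: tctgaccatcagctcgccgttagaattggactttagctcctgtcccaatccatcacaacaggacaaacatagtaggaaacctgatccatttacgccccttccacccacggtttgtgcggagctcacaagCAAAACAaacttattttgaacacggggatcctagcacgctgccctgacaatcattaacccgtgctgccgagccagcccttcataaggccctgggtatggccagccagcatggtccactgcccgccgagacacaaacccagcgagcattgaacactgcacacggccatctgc
The motifs were the GC box GGGCGG, bound by the Sp1 family, the AP-1 element TGANTCA, the TEAD element GGAATG, the SMAD element CAGACA, the FoxO element GTAAACA, the insulin response element core CAAAACA and the TATA box TATAAA. In these 3 windows no match overlapped another. The Igfbp2 window held 1 GC box, at window position 185 counted from its 5′ end. The Igfbp7 window held 4 GC boxes, at positions 130, 140, 162 and 192, the third on the opposite strand. A GC box was found in 4 of the 10 windows and in 33.1% of all 33469 promoter windows. The Igfbp1 window held 1 insulin response element core, at position 130, a match found in 2 of the 10 windows and in 6.28% of all windows. The FoxO letters GTAAACA and the TATA box letters were each found in 1 of the 10 windows, against 3.78% and 14.2% of all windows, and in 0 of the 3 shown. The insulin response element core was counted apart from the FoxO letters. Their absence therefore does not mean that the Igfbp1 window lacks a site for FoxO factors. AP-1, TEAD and SMAD letters were found in 0 of the 10 windows, against 7.33%, 14.2% and 21.1% of all windows. The G and C content was 66.7% for Igfbp2 and 74.3% for Igfbp7, and the median over all windows was 51.7%.

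Of the 10 genes, 1 rose in EpiX and 1 fell, by limma at a Benjamini-Hochberg adjusted p under 0.05 over all genes tested. Igfbp2 was 11.9-fold higher in EpiX and Igfbp7 was 4.09-fold lower, and 8 genes did not pass. Since the 10 genes were chosen with results known, these counts describe the set. In all, 5.78% of the genes tested were called, 2.63% higher and 3.15% lower in EpiX. The median difference, EpiX minus BEGM, was -0.10 over the 10 genes and 0.002 over all genes. The values are log2 signals taken as base 2, and a signal says nothing of one gene's amount of RNA against another's. Because each array measures a bulk culture, fewer cells of a type and less RNA per cell cannot be told apart.

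The arrays had medians of 6.90 to 6.93 in EpiX and 6.98 to 7.13 in BEGM over the genes tested. On the first principal component the EpiX arrays scored 34.2 to 53.9, BEGM arrays 2 and 3 scored -54.8 and -73.2, and BEGM array 1 stood apart from its group at -7.24. Background control probe sets, 23 on each array, had signals of 3.12 to 6.99. The size of a difference is not firm for a gene that lay inside that range on every array of a medium, and no detection calls were used here. Intron control probe sets, 1153 on each array, had a 90th percentile of 8.00 to 8.73 and were not part of that range. Krt14, which marks basal cells, had signals of at least 16.4 on every array. Tp63, the regulator of basal identity, was at 14.6 to 14.8 in EpiX and 12.2 to 12.9 in BEGM. The epithelial cadherin Cdh1 was likewise at 16.2 or above and the epithelial adhesion molecule Epcam at 12.0 or above. Of the other cell types tested, the leukocyte gene Ptprc stayed at 3.77 to 4.14, the endothelial gene Pecam1 at 4.30 to 5.04 and the ciliated cell regulator Foxj1 at 3.78 to 4.62. Other markers of these types were higher. Cd68, of the leukocyte list, was at 11.36, 11.08 and 9.17 in EpiX, against 8.65, 9.62 and 10.22 in BEGM. Esam, of the endothelial list, was at 5.874 to 6.329 in EpiX and 6.865 to 8.437 in BEGM. Neither passed, and Esam lay inside the background range on every EpiX array. The fibroblast gene Col1a1 was at 5.14 to 5.82 in EpiX and 7.44 to 12.3 in BEGM, and the fibroblast receptor gene Pdgfra at 5.10 to 5.48 in EpiX and 4.90 to 9.07 in BEGM. Both lay inside the background range on every EpiX array.

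**Figure D1:**
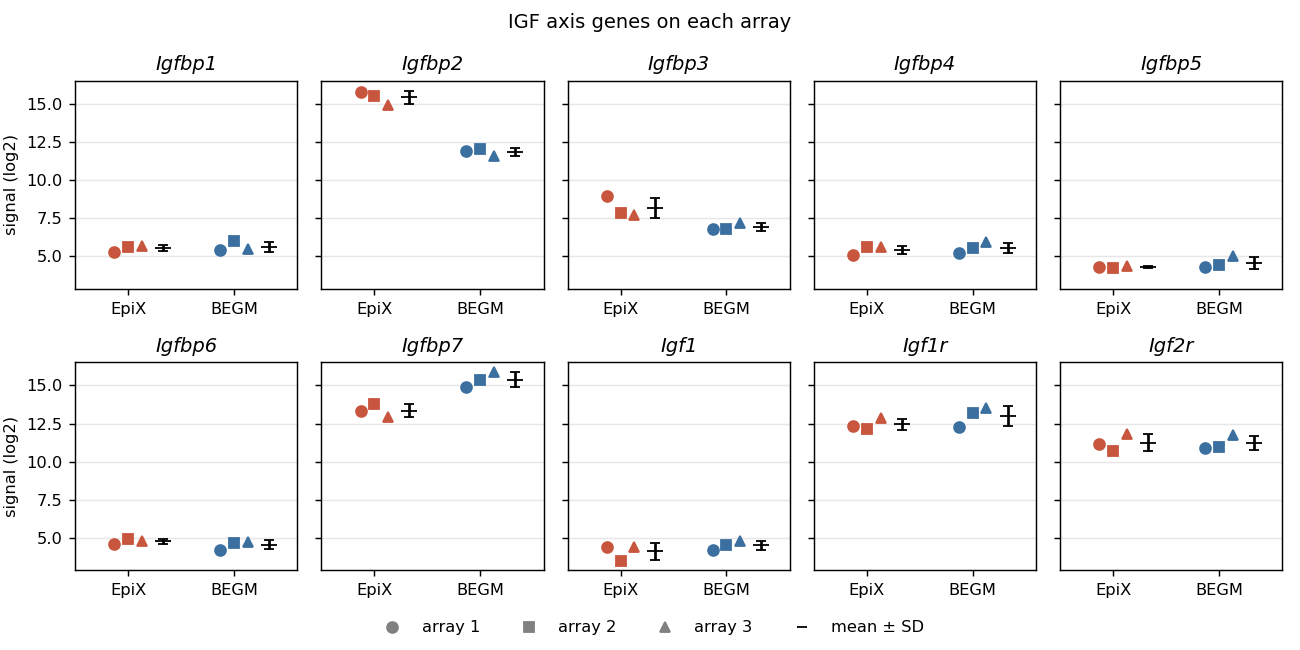
Signal on the log2 scale (vertical axis) of the 10 IGF axis genes on the 3 EpiX and the 3 BEGM arrays; symbols mark the array number and bars the mean ± SD (n = 3 per medium). The EpiX arrays lie above every BEGM array for Igfbp2 and Igfbp3 and below every one for Igfbp7, and the media overlap for the other 7 genes.

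Igfbp2 encodes a secreted protein that binds IGFs, IGF2 above all, and carries an integrin-binding motif. Its signal was 15.79, 15.53 and 14.96 on EpiX arrays 1, 2 and 3, against 11.91, 12.08 and 11.57 on BEGM arrays 1, 2 and 3. The lowest EpiX array lay far above the highest BEGM array, and the arrays of each medium lay close together. The means were 15.43 ± 0.43 in EpiX and 11.85 ± 0.26 in BEGM (SD, n = 3 each). The difference was 3.57 ± 0.25 (SE; 95% interval 2.98 to 4.16; limma adjusted p = 0.00195) and was larger than the spread between arrays. By size it ranked 13 among the rises of all genes tested. Without any 1 array the difference ran from 3.39 to 3.81 and kept an adjusted p of at most 0.0206. When both number 2 arrays were omitted it was 3.63 with an adjusted p of 0.17, in a fit where limma called 0 genes and 1582 had an unadjusted p under 0.05.

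Igfbp7 encodes a secreted protein of matrix and basement membrane that binds IGFs weakly. Its signal was 13.34, 13.79 and 12.91 on EpiX arrays 1, 2 and 3, against 14.90, 15.35 and 15.88 on BEGM arrays 1, 2 and 3. Every EpiX array was below every BEGM array. The means were 13.35 ± 0.44 in EpiX and 15.38 ± 0.49 in BEGM (SD, n = 3 each), and the gene fell by 2.03 ± 0.31 (SE; limma adjusted p = 0.0169). The size of the fall held without single arrays, between -2.27 and -1.78, but the call did not. The adjusted p was 0.0712, 0.0594 and 0.0509 when EpiX array 1, 2 or 3 was omitted and 0.0816 when BEGM array 2 was. Those fits called 1.13%, 0.672%, 2.78% and 1.28% of all genes, against 5.78% with all arrays. The call held without BEGM array 1 (adjusted p = 0.00461) and without BEGM array 3 (0.0332), in fits that called 13.9% and 3.62% of all genes. When both number 3 arrays were omitted the difference was -1.56 (adjusted p = 0.0582), and 1.76% of all genes were called. When both number 2 arrays were omitted it was -2.27 (adjusted p = 0.272), in the fit that called 0 genes.

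Signals of some markers of other cell types differed between the media alongside Igfbp7. Over 12 measured fibroblast markers the mean log2 signal was 5.07, 5.07 and 5.50 on EpiX arrays 1, 2 and 3, against 6.03, 6.67 and 9.02 on BEGM arrays 1, 2 and 3. Of these 12 genes 0 passed the test, and their median difference was -1.87. All but Col3a1 and Thy1 lay inside the background range on every EpiX array, so the size of that difference is not firm. Dcn, Tcf21 and Mfap5 lay inside it on all 6 arrays. Over 10 smooth muscle and cartilage markers the mean was 6.17 to 6.31 in EpiX and 7.23 to 7.69 in BEGM. Their median difference was -0.48, and 7 did not pass. Of these, Myh11 (-0.095), Des (-0.29), Comp (-0.12) and Acan (0.078) lay inside the background range on all 6 arrays. The rest of those that did not pass, Actg2 (-0.58), Smtn (-0.52) and Col2a1 (-0.43), were lower on every EpiX array than on any BEGM array. Such a split was found for 14.5% of all genes. Smtn lay above the background range on all 6 arrays, and Actg2 and Col2a1 lay inside it on every EpiX array. The 3 that passed, all falls, were Acta2, the smooth muscle actin (-2.91), Lmod1 and Cnn1. Lmod1 lay inside the background range on all 6 arrays. Cnn1 was inside it in EpiX at 5.20 to 5.92 and at 10.6 to 13.5 in BEGM. Over 9 leukocyte markers the mean stayed at 4.92 to 5.05 on all arrays, with 1 fall, that of the invariant chain gene Cd74, which lay inside the background range on all 6 arrays. Over 8 endothelial markers it was 4.37 to 4.54 in EpiX and 4.78 to 4.93 in BEGM, with 0 calls. Igfbp7 was highest, like the fibroblast markers, on BEGM array 3, and the part of other cell types in its difference was not tested. Without that array the difference in Igfbp7 was -1.78. Igfbp2 was at 11.57 to 12.08 over the BEGM arrays, and the fibroblast mean ran from 6.03 to 9.02. The part of other cell types in the difference of Igfbp2 was not tested either. 
Epithelial markers also differed between the media, alongside Igfbp2. Over 7 measured basal cell markers the mean was 14.24 to 14.45 in EpiX and 12.83 to 13.54 in BEGM, 2 rose and 0 fell. The basal keratin gene Krt15 rose by 4.12 (adjusted p = 0.0229), at 16.34, 15.53 and 14.06 on the EpiX arrays, against 12.15, 11.43 and 9.99 on the BEGM arrays. Tp63 rose by 2.15 (adjusted p = 0.00431). The median difference of the 7 genes was 0.34. Over 10 luminal, secretory and ciliated markers the mean was 8.89 to 10.07 in EpiX and 8.51 to 9.66 in BEGM, with a median difference of -0.23, 0 rises and 1 fall. The fall was that of Krt18, a keratin of simple epithelia, at 10.31, 10.01 and 10.89 in EpiX, against 13.91, 14.20 and 14.13 in BEGM (difference -3.68; adjusted p = 0.00161). The secretoglobin gene Scgb3a1 was at 11.64, 13.33 and 15.75 in EpiX, against 5.26, 10.27 and 8.01 in BEGM. Its media did not overlap, and it did not pass (difference 5.72, adjusted p = 0.0675). The other secretoglobin genes of the list, Scgb1a1 (-0.85) and Scgb3a2 (-0.38), differed in the opposite direction and did not pass. Of the rest of the list, Bpifa1 (2.085), Tppp3 (1.155) and Krt19 (0.89) were higher in EpiX and did not pass. Krt8 (-0.74), Tekt1 (-0.50) and Foxj1 (-0.08) were lower and did not pass. Scgb3a2, Tppp3, Tekt1 and Foxj1 lay inside the background range on all 6 arrays. Over 9 pan-epithelial markers the mean was 12.24 to 12.97 in EpiX and 11.77 to 13.26 in BEGM, with 0 calls. The part of these epithelial markers in the difference of Igfbp2 was not tested.

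**Figure D2:**
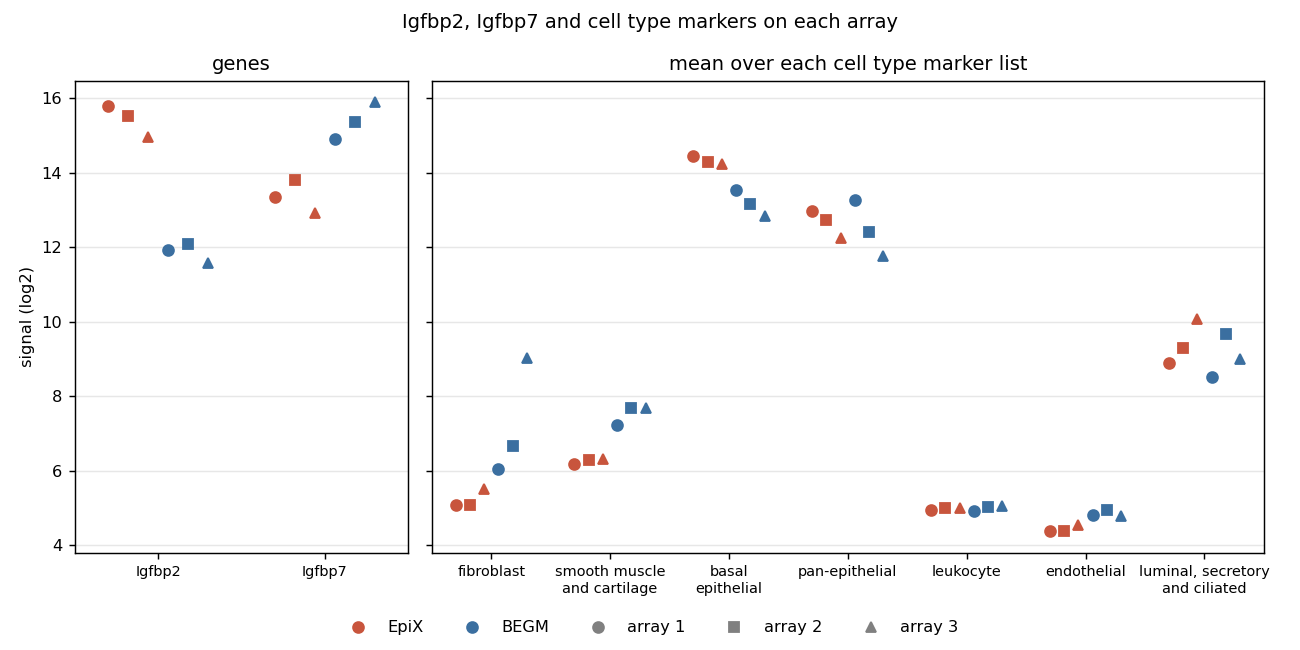
Signal on the log2 scale (vertical axis) of Igfbp2 and Igfbp7, left, and the mean signal over 7 lists of cell type markers, right, on each EpiX and BEGM array. The fibroblast marker mean reaches 9.02 on BEGM array 3, and Igfbp2 is at 11.57 to 12.08 on the 3 BEGM arrays.

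BEGM array 1, which lay nearest to the EpiX arrays over all genes, did so for Igfbp7 and not for Igfbp2. On a scale where the EpiX mean is 0% and the mean of BEGM arrays 2 and 3 is 100%, BEGM array 1 stood at 97.5% for Igfbp2 and at 68.3% for Igfbp7. Over the 869 called genes the median position was 78.2% (quartiles 60.4% and 100%), and 27.5% of them stood at or above the position of Igfbp2. These genes were called in a fit that held BEGM array 1, so their positions are a description.

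Igfbp3 encodes the main IGF carrier of serum, which forms a ternary complex with IGF and the acid-labile subunit. Its signal was 8.96, 7.87 and 7.71 on EpiX arrays 1, 2 and 3, against 6.81, 6.78 and 7.20 on BEGM arrays 1, 2 and 3. BEGM arrays 1 and 2 lay inside the range of the background probe sets. Igfbp3 was above the 90th percentile of the intron control probe sets on EpiX array 1 alone. Every EpiX array was above every BEGM array, with EpiX array 1 well above the others. The means were 8.18 ± 0.68 in EpiX and 6.93 ± 0.24 in BEGM (SD, n = 3 each), a difference of 1.25 ± 0.34 (SE; 95% interval 0.45 to 2.04) that did not pass (limma adjusted p = 0.0831). Without EpiX array 1 it was 0.86 (adjusted p = 0.11). Media that do not overlap were found for 3 of the 10 genes, and for 28% of all genes tested. Igfbp1 and Igfbp3 neighbour each other on chromosome 14, and Igfbp2 and Igfbp5 on chromosome 9. In each pair the gene with separate media has a partner whose media overlap.

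The other binding proteins did not pass. Igfbp1, Igfbp4, Igfbp5, Igfbp6 and Igf1 lay inside the range of the background probe sets on all 6 arrays, so these genes cannot be called present or absent. The top of that range, 6.99, was close to the array medians over the genes tested, 6.90 to 7.13. Such a position is therefore common among all genes, and their share inside the range was not counted. Igfbp1, the insulin-repressed binding protein of liver, was at 5.31, 5.61 and 5.69 on the EpiX arrays, against 5.40, 5.99 and 5.49 on the BEGM arrays. Its difference was -0.08, with a 95% interval of -0.57 to 0.40. Igfbp4, which restrains IGF until the protease PAPP-A cleaves it, was at 5.11, 5.59 and 5.60 in EpiX, against 5.21, 5.54 and 5.92 in BEGM. Its interval ran from -0.68 to 0.43. With each array centred on its median, which moved the median of all genes to 0.13, the differences of Igfbp1 and Igfbp4 were 0.04 and 0.003.

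Igfbp5, a binding protein of bone and matrix, was at 4.31, 4.25 and 4.39 on the EpiX arrays, against 4.29, 4.43 and 5.02 on the BEGM arrays. BEGM array 3 alone stood above the rest. Its difference of -0.26 had a 95% interval of -0.76 to 0.24. Igfbp6, which prefers IGF2, was at 4.61, 4.91 and 4.79 in EpiX, against 4.23, 4.65 and 4.76 in BEGM. Its difference of 0.22 had an interval of -0.22 to 0.66, and the media overlapped. The 95% intervals of Igfbp1, Igfbp4, Igfbp5 and Igfbp6 all lay between -0.76 and 0.66.

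**Figure D3:**
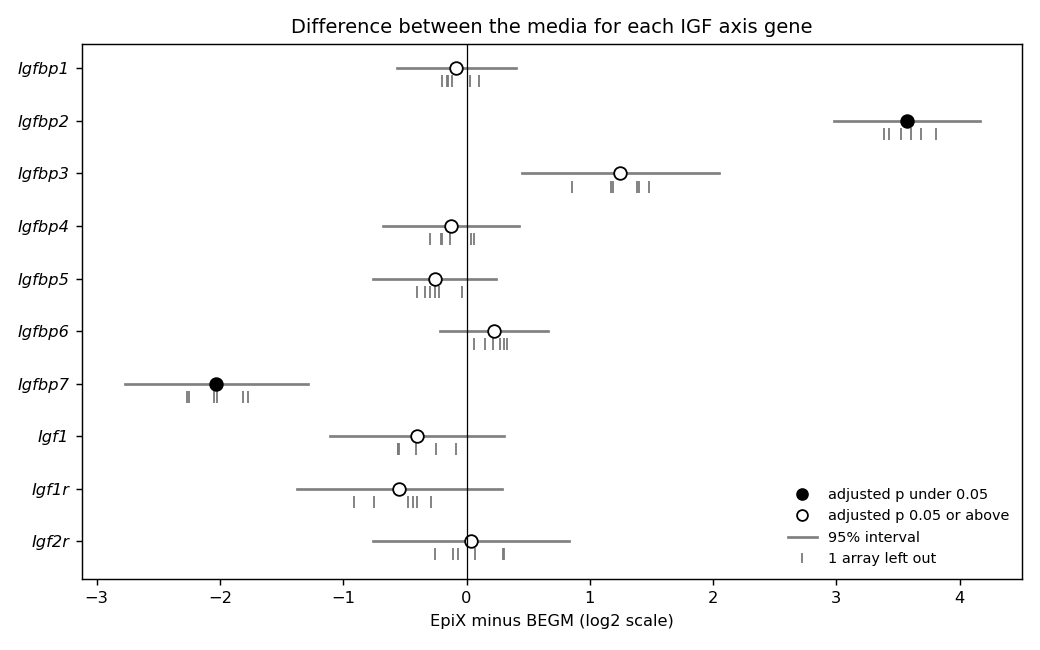
Difference EpiX minus BEGM on the log2 scale (horizontal axis) for each IGF axis gene, with its 95% interval as a line, filled where the adjusted p was under 0.05; ticks below give the difference with 1 array left out. Igfbp2 at 3.57 and Igfbp7 at -2.03 passed, and Igfbp3 at 1.25 did not.

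The ligand Igf1, which in most tissues comes from stromal cells, was at 4.43, 3.49 and 4.43 on EpiX arrays 1, 2 and 3, against 4.22, 4.50 and 4.83 on BEGM arrays 1, 2 and 3. The media overlapped, and EpiX array 2 was the lowest. Its difference was -0.40 (95% interval -1.11 to 0.30; limma adjusted p = 0.494).

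Both receptor genes lay above the background probe sets on every array. Igf1r was at 12.32, 12.17 and 12.86 in EpiX, against 12.25, 13.22 and 13.51 in BEGM. BEGM array 1 lay among the EpiX arrays, and BEGM arrays 2 and 3 were the highest. The difference was -0.54 (95% interval -1.37 to 0.285; limma adjusted p = 0.423), and without BEGM array 1 it was -0.92 (adjusted p = 0.0534). Igf2r was at 11.18, 10.72 and 11.84 in EpiX, against 10.92, 10.99 and 11.72 in BEGM. Array 3 was the highest in each medium. Its difference was 0.04 (95% interval -0.76 to 0.83; limma adjusted p = 0.969) and turned to -0.11 without BEGM array 1, so no direction can be given.

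The genes whose values ran closest to those of Igfbp2 and Igfbp7 were sought by the root mean square distance over the 6 arrays, each gene centred on its own mean. Nearest to Igfbp2 were the carboxylesterase Ces2g (distance 0.345 on the log2 scale), the kallikrein peptidase Klk9 (0.448) and Pc, the mitochondrial pyruvate carboxylase (0.489). Ces2g was at 13.24, 12.86 and 13.05 on the EpiX arrays, against 10.19, 9.90 and 9.63 on the BEGM arrays. Nearest to Igfbp7 were the receptor gene Mrgpre (0.243), the actin-binding protein gene Nexn (0.245) and Fermt2, an activator of integrins (0.253). Fermt2 was at 11.86, 11.77 and 11.59 in EpiX, against 13.42, 13.91 and 14.02 in BEGM. The split between the media is part of each of these 6 profiles, so the distances are a description.

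Another 76 measured genes of the pathway, in 8 lists by role, held 4 that rose and 9 that fell in EpiX by limma, and 63 did not pass. That is 17.1% called, beside 5.78% of all genes, and their median difference was -0.04. The count depended on single arrays: omitting EpiX array 1 left 1 higher and 2 lower, omitting EpiX array 2 left 0 and 1, and omitting EpiX array 3 left 2 and 3. Omitting BEGM array 1 gave 7 higher and 12 lower, BEGM array 2 gave 2 and 1, and BEGM array 3 gave 4 and 5. Calls over all genes moved as well. In the same order, these 6 fits called 1.13%, 0.672%, 2.78%, 13.9%, 1.28% and 3.62% of all genes. Of the 13 called genes, Ccn2 kept its call in all 6 of these fits, Bcl6 lost it only without EpiX array 2, and Htra1 and Tsc2 had it in 0 of the 6. Of the 13, 4 lay inside the background range on every array of at least 1 medium: Grb14 and Socs2 in EpiX, Socs3 in BEGM and Pdk4 in both.

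The other ligands, receptors and the acid-labile subunit held 0 calls among 6 genes. Igfals, the acid-labile subunit, differed by 0.32 (adjusted p = 0.506) and the ligand Igf2 by 0.12 (adjusted p = 0.743). Igf2 was at 5.19, 5.17 and 5.35 on the EpiX arrays, against 5.25, 5.27 and 4.82 on the BEGM arrays, inside the range of the background probe sets. Among 4 measured proteases that cleave IGF-binding proteins and their inhibitors, 1 fell. It was the secreted serine protease Htra1 (-0.69 ± 0.15, SE; adjusted p = 0.048), at 13.66, 13.93 and 13.70 in EpiX, against 14.59, 14.30 and 14.47 in BEGM. Its adjusted p ran from 0.0593 to 0.16 with single arrays left out.

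Proteins that share the IGFBP amino-terminal domain but lie outside the family had the lowest median of the 8 lists: 2 of 9 measured genes fell, 0 rose, and the median difference was -1.06. That median was the difference of Ccn3, whose media overlapped and which did not pass (limma adjusted p = 0.431). Ccn5, Igfbpl1 and Kazald1 lay inside the background range on all 6 arrays, and Esm1 on every EpiX array. The mean over the 9 genes was 8.03, 8.13 and 8.61 on the EpiX arrays, against 8.84, 9.36 and 10.04 on the BEGM arrays. It was highest on BEGM array 3, as was the fibroblast marker mean (5.07, 5.07 and 5.50 in EpiX, against 6.03, 6.67 and 9.02 in BEGM), whose part in this list was not tested. Without that array Ccn2 differed by -2.77 (adjusted p = 0.00415) and Ccn1 by -1.39 (adjusted p = 0.0179). Ccn2, a matricellular growth factor, was at 13.47, 13.51 and 13.30 on the EpiX arrays, against 16.05, 16.34 and 16.82 on the BEGM arrays. It fell by 2.98 ± 0.22 (SE; limma adjusted p = 0.00195), with no overlap between the media. Its relative Ccn1 was at 14.10, 13.90 and 14.18 in EpiX, against 15.32, 15.59 and 15.98 in BEGM. It fell by 1.57 ± 0.20 (adjusted p = 0.00978), and the adjusted p was 0.0531 or 0.0666 when EpiX array 1 or 2 was omitted and 0.0515 when BEGM array 2 was.

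Among 10 receptor adaptors and their regulators 2 fell and 0 rose. The adaptor Shc1 was at 12.01, 12.01 and 11.92 on the EpiX arrays, against 12.71, 12.82 and 13.14 on the BEGM arrays. It fell by 0.92 ± 0.16 (SE; adjusted p = 0.0231). Grb14, which inhibits the insulin receptor, was at 6.10, 6.34 and 6.80 in EpiX, against 7.51, 9.39 and 8.70 in BEGM, and fell by 2.12 ± 0.46 (adjusted p = 0.0471). All 3 EpiX values lay inside the background range, so the size of that fall is not firm. Of the 6 fits without 1 array, Shc1 kept its call in 2, those without BEGM array 1 or 3, and Grb14 in 1, that without BEGM array 1.

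In the list of PI3-kinase, Akt and mTOR genes 1 of 21 rose, 1 fell and 19 did not pass. Phlpp1, a phosphatase that inactivates Akt, was at 10.41, 10.41 and 10.60 in EpiX, against 9.15, 9.34 and 9.80 in BEGM (difference 1.04 ± 0.20, SE; adjusted p = 0.0313), and kept its call in 2 of the 6 fits without 1 array, those without BEGM array 1 or 3. Tsc2, a brake on mTOR, was at 10.52, 10.62 and 10.69 in EpiX, against 11.20, 11.17 and 11.23 in BEGM (difference -0.59 ± 0.13, SE; adjusted p = 0.0469).

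FoxO factors and their target genes, which Akt signalling represses, did not move one way: 2 of 16 rose, 2 fell and 12 did not pass. The transcriptional repressor Bcl6 was at 10.27, 9.96 and 9.79 in EpiX, against 8.16, 8.44 and 8.66 in BEGM, and rose by 1.59 ± 0.20 (SE; adjusted p = 0.00906). Without EpiX array 2 its adjusted p was 0.0597. The cell death gene Bcl2l11 rose by 1.26 ± 0.26 (adjusted p = 0.0418) and kept its call in 1 of the 6 fits without 1 array, that without BEGM array 1. The ubiquitin ligase Fbxo32 was at 8.56, 7.70 and 7.21 in EpiX, against 10.44, 10.57 and 10.08 in BEGM. It fell by 2.54 ± 0.34 (adjusted p = 0.0119), and the adjusted p was 0.0724 without EpiX array 2 and 0.0681 without BEGM array 2. The metabolic kinase Pdk4 fell by 1.44 ± 0.30 (adjusted p = 0.0424), lay inside the background range on all 6 arrays and kept its call in 1 of these fits, that without BEGM array 1.

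**Figure D4:**
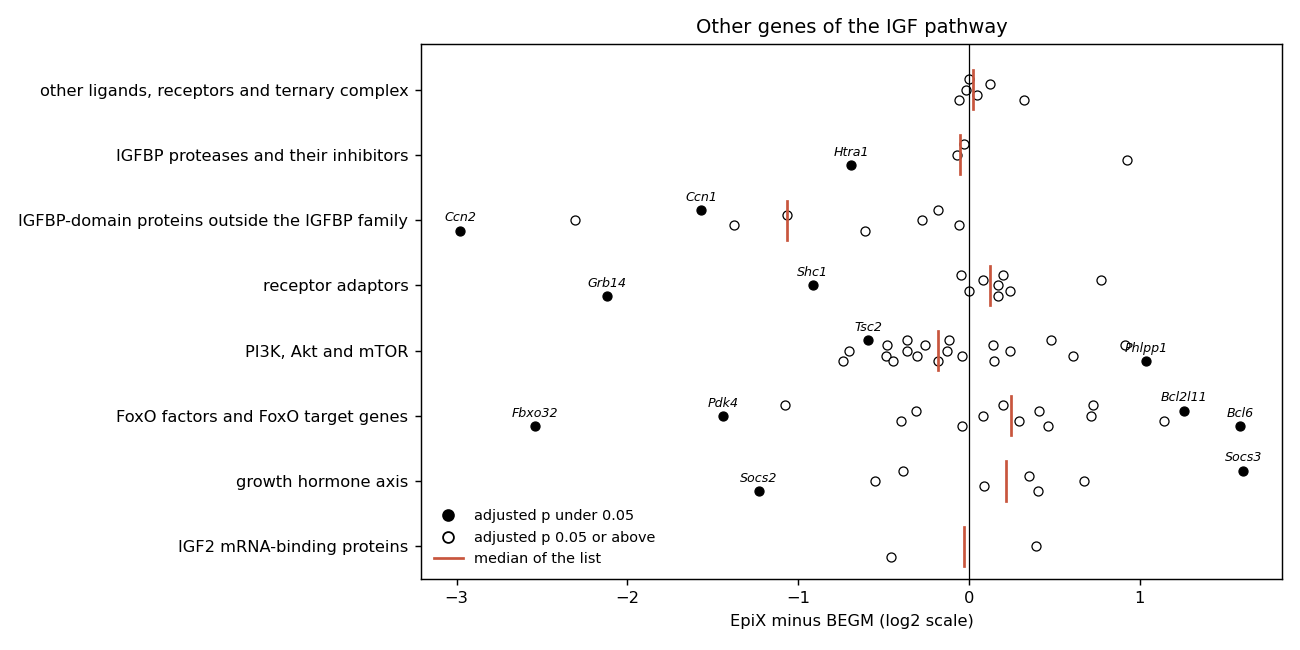
Difference EpiX minus BEGM on the log2 scale (horizontal axis) of the 76 other measured pathway genes, 1 point a gene, in 8 lists; filled and named where the adjusted p was under 0.05, with the median of each list as a line. The list of proteins with an IGFBP domain has the lowest median, -1.06, which is the difference of Ccn3, a gene that did not pass. The named genes of the FoxO list lie on both sides of 0.

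The growth hormone axis, which drives Igf1 transcription in liver, held 1 rise, 1 fall and 6 genes that did not pass. Socs2, a feedback inhibitor of growth hormone signalling, was at 6.75, 6.88 and 6.39 on the EpiX arrays, against 8.20, 7.88 and 7.63 on the BEGM arrays, and fell by 1.23 ± 0.21 (SE; limma adjusted p = 0.0215). Socs3, an inhibitor of cytokine and insulin receptor signalling, was at 7.36, 7.32 and 7.36 in EpiX, against 5.74, 5.37 and 6.10 in BEGM, and rose by 1.61 ± 0.20 (adjusted p = 0.00977). The EpiX values of Socs2 and the BEGM values of Socs3 lay inside the background range, so neither size is firm. Socs3 lost its call without EpiX array 1 (adjusted p = 0.0531) and EpiX array 2 (0.0648), and Socs2 kept its call in 2 of the 6 fits, those without BEGM array 1 or 3. The IGF2 mRNA-binding proteins held 0 calls among 2 measured genes, with Igf2bp1 at -0.46 (adjusted p = 0.385) and Igf2bp2 at 0.40 (adjusted p = 0.192).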

How the data were processed

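RNA from 6 cultures was measured on Affymetrix arrays. The authors' deposited file holds log2 values of 24834 probe sets on each array. Transcriptome Analysis Console is the tool listed in the submitters' processing notes; how signals were summarised and normalized is not given in the sources used here, and base 2 was read from the value range, 2.62 to 18.66. Platform annotation gave 15049 probe sets 1 symbol and 0 several, and after keeping the brightest probe set per gene 15037 genes were tested.

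Differences are EpiX minus BEGM from limma 3.58.1 (lmFit and eBayes, medium only, no filter) with statmod 1.5.0 in R 4.3.3, with 2-sided p-values adjusted by Benjamini-Hochberg over all genes and called under 0.05. The script was tested on simulated data. No test was made over the members as a list. Alternatives were a fixed or random block for the sample number, quantile normalization, median centring, array weights, a trended robust variance, removal of the dimmest 25% of genes, the mean of probe sets, and leaving out arrays. Plots were drawn with matplotlib 3.10.9.

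The members and the lists were chosen with earlier results of these data known. Named were all members, set marker genes and the 3 genes nearest to each called member. Of each pathway list, up to 4 called genes with the largest differences were named (2 as values where none was called). Krt15, Krt18, Lmod1, Cnn1 and Cd74 are named because they were called in their marker lists. Scgb3a1, further marker genes that did not pass and the uncalled genes of the IGFBP-domain list were added after their values were seen. The number of arrays limits precision. RefSeq sequences and neighbours are on GRCr8, and the coordinates of probe sets were not used here.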

Additional observations from a re-analysis of the deposited data

How the results depend on the processing

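Each result was recomputed under 8 other settings and 9 fits without 1 or 2 arrays. Of the 8, the mean of probe sets could hardly change a result. Only 10 of the 15037 genes had several probe sets, and each member had 1. It gave the main counts of 395 genes higher and 474 lower. Array weights moved the genes called higher to 956 and lower to 1031 and the other pathway genes called higher to 7. With arrays left out, the ranges were 0 to 988 genes called higher, 0 to 1101 lower, 0 to 1 members higher, 0 to 1 members lower, 0 to 7 other pathway genes higher and 0 to 12 lower; the fit without both number 2 arrays gave the zeros for all genes, where limma's unadjusted p was under 0.05 for 1582 genes. These fits hold fewer samples. Leaving out the dimmest 25% of genes removed Igfbp5 and Igf1 from the test. Median centring changed the share of calls that were higher to 57.8%, against 45.5%. Igfbp2 ran from 3.39 to 3.81 and lost its call in 1 of 17 settings, and Igfbp7 ran from -2.27 to -1.56 and lost it in 6, all with arrays left out.

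Igfbp3 was not called in any of the 17 settings, with an adjusted p of 0.0529 to 0.467. Genes that did not pass also changed sign. Igfbp1 was 0.013 with quantile normalization and 0.043 with median centring, and -0.23 to 0.10 with arrays left out. Igfbp4 was 0.003 with median centring and -0.30 to 0.06 with arrays left out. Igf2r was -0.24 with array weights and -0.26 to 0.30 with arrays left out. The cause was not tested. Of the 13 called pathway genes, 7 of 104 values in the settings that kept all arrays and 72 of 117 with arrays left out lost the call, and 0 changed sign.

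Whether a sample number marks a line is not stated in the labels, and the titles number the arrays differently, though they put the same arrays of sample 1 and of sample 2 together. Array deviations from the mean of their medium correlated between the media at 0.32 (number 1), -0.01 (number 2) and 0.32 (number 3). Arrays of different numbers correlated at -0.37 to 0.16, and 4 of the 6 arrays correlated best with the array of their own number in the other medium. These values do not settle whether the numbers are pairs. The main fit did not take them as pairs because the labels do not state it, and the block was run as an alternative. With the replicate block, 592 genes were higher and 660 lower, 1 member was higher (Igfbp2, 3.57, adjusted p = 0.00177) and 1 lower (Igfbp7, -2.03, adjusted p = 0.0232), and 5 other pathway genes were higher and 8 lower; Htra1 (adjusted p = 0.0768) and Tsc2 (0.0731) were not called, and Esm1 (0.0188) and Cdkn1b (0.0435) were.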

Other observations

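Several pathway genes had media that did not overlap but did not pass in the medium-only fit; they were picked after their values were seen. Esm1, a secreted proteoglycan with an IGFBP domain, was at 4.60, 4.80 and 5.14 on the EpiX arrays, against 5.97, 7.30 and 8.19 on the BEGM arrays (difference -2.31; limma adjusted p = 0.0503). It lay inside the background range on all EpiX arrays. Esm1 passed in 7 of the 8 other settings that kept all arrays, among them the replicate block (adjusted p = 0.0188), and in 2 of the 9 fits with arrays left out. Pik3r1, the regulatory subunit of PI3-kinase, was at 11.32, 11.11 and 11.07 in EpiX, against 9.86, 10.21 and 10.68 in BEGM (0.91; adjusted p = 0.0653). The FoxO targets Txnip (0.72; adjusted p = 0.0825) and Cdkn1b (1.14; adjusted p = 0.0835) were higher on every EpiX array than on any BEGM array. Of the 8 settings with all arrays, Pik3r1 passed in 3 (random block, median centring and array weights), Txnip in 1 (median centring) and Cdkn1b in 2 (replicate block and array weights). Of the 9 fits with arrays left out, they passed in 1, 0 and 2. Such a split was found for 28% of all genes.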
